A study of Mus musculus with 6 samples.

Results

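The intervals described here lie just downstream of gene starts, in the zone where the first (+1) nucleosome of a transcribed gene is found. Nucleosomes were not mapped here, so whether an interval lies on that nucleosome or beside it was not tested. They are the ATAC-seq intervals under 500 bp wide, on autosomes, whose midpoint lies 100 to 400 bp downstream of the nearest transcription start site (TSS) of a protein-coding gene by GENCODE vM1 on mm9. Intervals within 500 bp of TSSs of different genes on both strands were left out, as were those with a GC content under 50% in the 200 bp around the midpoint. Of 39768 intervals, 39117 were autosomal and 37389 of these were narrow enough. The position left 3188, the rule on neighbouring genes 2857 and the GC limit 2777. These 2777 members (hereafter downstream intervals) belong to 2500 genes, of which 250 hold more than 1, and Cisd2, Trim28 and Ttc12 hold 4 each. The choice used position, width and sequence, and no measured count.

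ATAC-seq uses the Tn5 transposase, which inserts adapters into DNA that proteins leave exposed, so the number of fragment ends in an interval measures its accessibility. The libraries came from muscle of C57BL/6 mice 7 weeks old, made from 50000 nuclei each. The 3 CTL libraries (called WT in their titles) are H2A.Z-1 flox/flox and also H2A.Z-2 flox/flox, without HSA-Cre, and the 3 libraries labelled H2A.Z dKO carry HSA-Cre in addition to these floxed alleles, which both groups thus share. HSA-Cre is driven by the human skeletal actin promoter in post-mitotic muscle cells, so other cells of the tissue keep both genes. The sample labels name tibialis anterior muscle, whereas hind limb muscles are named in the methods. The labels do not say that the replicates were separate animals, so p-values here measure only the spread between these libraries.

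H2A.Z is a variant of histone H2A that the SRCAP and TIP60 complexes place into nucleosomes flanking the starts of transcribed genes. The +1 nucleosome sits at a fixed distance behind the nucleosome-free region of the start, and RNA polymerase II pauses close to its upstream edge. Tn5 cuts mostly in the nucleosome-free region and in the linkers between nucleosomes, and rarely within the DNA wrapped on a nucleosome.

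To show what DNA these intervals hold, 6 members outside untranslated exons are printed, with mm9 coordinates and in the direction of the gene. H2afv encodes H2A.Z-2 itself, Rbx1, Cyhr1 and Zranb3 were among the most accessible, Ilvbl exceeded the interval at its own start, and Sgcb is a muscle gene. Capitals mark the GC box (GGGCGG), the NFY box (CCAAT), the ETS motif (CCGGAAG) and the cyclic AMP response element (ACGTCA), on either strand. The intervals are chr11:6344046-6344272 on the minus strand (H2afv), chr15:81296971-81297131 on the plus strand (Rbx1), chr15:76490116-76490371 on the minus strand (Cyhr1), chr1:129999235-129999461 on the minus strand (Zranb3), chr10:78037414-78037544 on the plus strand (Ilvbl) and chr5:74038503-74038794 on the minus strand (Sgcb). All 6 midpoints are intronic.
H2afv: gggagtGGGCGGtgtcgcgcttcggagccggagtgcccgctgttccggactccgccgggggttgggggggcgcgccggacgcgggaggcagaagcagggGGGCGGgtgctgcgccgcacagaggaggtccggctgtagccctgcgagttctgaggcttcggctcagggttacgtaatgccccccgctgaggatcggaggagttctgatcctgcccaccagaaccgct
Rbx1: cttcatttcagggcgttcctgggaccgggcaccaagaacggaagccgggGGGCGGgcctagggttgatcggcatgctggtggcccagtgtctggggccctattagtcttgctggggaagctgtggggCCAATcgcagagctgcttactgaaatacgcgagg
Cyhr1: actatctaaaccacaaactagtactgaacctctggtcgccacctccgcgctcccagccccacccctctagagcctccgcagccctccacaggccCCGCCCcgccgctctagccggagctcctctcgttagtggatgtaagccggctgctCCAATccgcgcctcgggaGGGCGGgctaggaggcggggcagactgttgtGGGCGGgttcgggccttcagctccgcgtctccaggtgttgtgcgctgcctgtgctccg
Zranb3: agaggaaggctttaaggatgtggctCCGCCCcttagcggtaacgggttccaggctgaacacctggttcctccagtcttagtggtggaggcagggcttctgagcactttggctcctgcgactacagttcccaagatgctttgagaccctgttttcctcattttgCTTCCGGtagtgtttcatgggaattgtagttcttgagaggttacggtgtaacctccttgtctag
Ilvbl: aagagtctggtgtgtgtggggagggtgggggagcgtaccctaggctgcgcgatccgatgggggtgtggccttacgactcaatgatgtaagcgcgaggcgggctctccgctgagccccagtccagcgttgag
Sgcb: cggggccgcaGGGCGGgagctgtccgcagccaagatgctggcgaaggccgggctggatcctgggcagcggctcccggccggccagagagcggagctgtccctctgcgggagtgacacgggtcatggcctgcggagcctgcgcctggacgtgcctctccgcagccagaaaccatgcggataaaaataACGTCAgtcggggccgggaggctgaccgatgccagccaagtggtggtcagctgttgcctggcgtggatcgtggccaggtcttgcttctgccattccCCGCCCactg
The members of H2afv, Rbx1, Cyhr1, Zranb3 and Sgcb hold 2, 1, 3, 1 and 2 GC boxes, and that of Ilvbl holds none of the motifs searched. The CpG counts of these members are 24 in H2afv, 9 in Rbx1, 21 in Cyhr1, 6 in Zranb3, 10 in Ilvbl and 24 in Sgcb.

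The downstream intervals formed a peak of their own, separated from the intervals at the start site by a trough. Their midpoints had a median of 225 bp downstream of the TSS, and the interquartile range spanned 182 to 275 bp. Counted in steps of 25 bp, the number of intervals fell from 1817 just upstream of the TSS to 173 at 100 to 124 bp. It then rose to 439 at 200 to 224 bp and fell again to 117 at 325 to 349 bp. Counts of 119 at 350 to 374 bp and 131 at 375 to 399 bp followed, a difference that was not tested. In steps of 50 bp there were 247 at 300 to 349 bp and 250 at 350 to 399 bp. Upstream, the trough lay at -250 bp with 125 intervals and the next rise at -300 bp with 183. The main peak did not rest on the choice of TSSs. With only transcripts annotated as protein_coding, the steps of 50 bp from 100 bp on held 338, 532, 885, 598, 298 and 274 intervals.

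**Figure D1:**
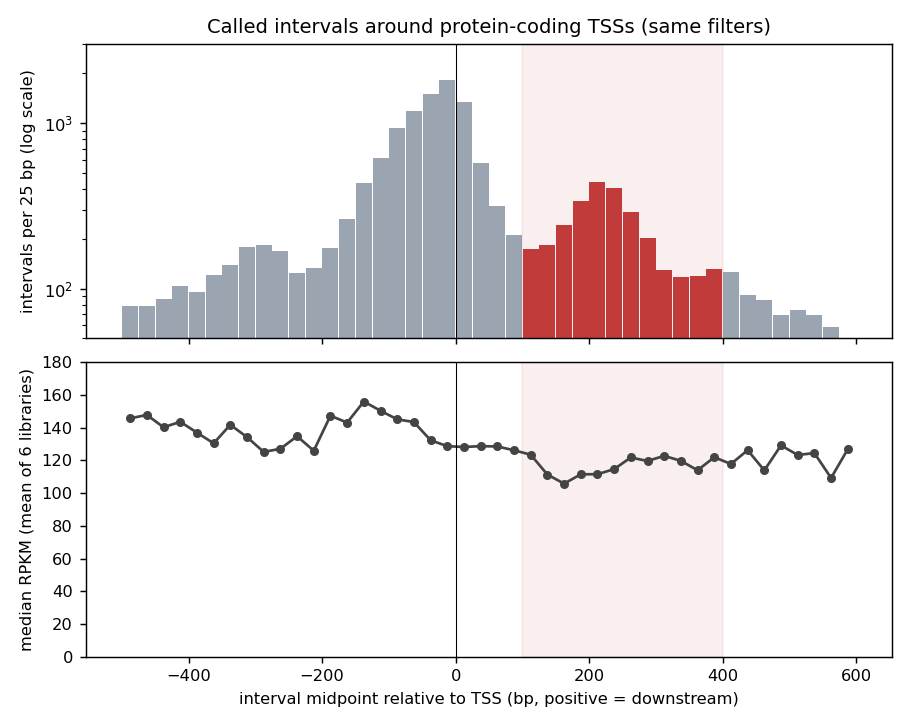
Number of intervals per 25 bp (upper panel, log scale) and their median RPKM (lower panel) against the distance of the midpoint from the TSS in bp, with the same filters on width, neighbours and GC; red bars and shading mark the downstream zone of 100 to 400 bp. The zone holds a separate peak of 439 intervals at 200 to 224 bp, while the median RPKM there stays below that at the start site.

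Most downstream intervals had their midpoint in an intron. By the annotation, the midpoint of 1595 members (57.4%) was intronic, that of 673 in a 5′ UTR exon, that of 417 in a coding exon and that of 88 in an exon of a transcript without coding sequence. A further 3 midpoints lay in a 3′ UTR exon and 1 outside the gene. The first exon of the nearest transcript had a median length of 176 bp, and 1712 members (61.6%) had their midpoint past its end. The end of this exon fell inside 722 members. The splice donor GGTGAG, read in the direction of the gene, occurred in the 200 bp around 19.6% of the midpoints, compared with 11.1% of the start-site intervals (same filters, within 100 bp of the TSS, 7849 intervals). The donor GGTAAG occurred in 5.22% and 3.17%.

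The start used as the reference was not always that of the main transcript. The nearest TSS belonged to a transcript annotated as protein_coding in 2147 members (77.3%), and it was the first TSS of its gene in 1178 (42.4%). Another TSS of the same gene lay within 1000 bp in 1564 members (56.3%). A part of the zone can therefore hold the start region of another transcript of the gene.

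The downstream DNA was as rich in GC as the start site but held fewer of most of the promoter motifs searched. The median GC content was 68.5%, and 66.5% at start sites. The observed over expected CpG ratio was 0.821 in members and 0.847 at start sites. It was 0.261 in intervals over 1000 bp from the TSS of any protein-coding gene. All motifs were searched on both strands in 200 bp. CCAAT, the box bound by NFY, occurred in 11.8% of members, 25.8% of start-site intervals, 26.4% of the upstream flank (the same rule 100 to 400 bp upstream, 2657 intervals) and 22.8% of all intervals. The ETS motif CCGGAAG occurred in 6.84%, 16.8%, 8.62% and 7.30% of these sets. The cyclic AMP response element ACGTCA occurred in 3.64%, 10.0%, 7.30% and 5.88%. The YY1 motif ATGGCGG was the one of these with a higher share in members (4.93%) than in the upstream flank (2.18%), with 8.63% at start sites and 3.62% of all intervals. The GC box GGGCGG was common in all, with 55.3% of members, 66.5% of start-site intervals, 55.8% of the upstream flank and 35.8% of all intervals. The AP-1 motif TGANTCA (N is any base) went the other way, with 2.92% of members and 2.57% of start-site intervals. It occurred in 2.86% of the upstream flank and 7.49% of all intervals. A match is a description of the letters only and was not tested for binding.

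Downstream intervals were narrower than start-site intervals and close to the whole table in width and counts. Their width ranged from 9 to 499 bp with a median of 123 bp, compared with 236 bp at start sites and 137 bp over all intervals. A total of 699 (25.2%) were narrower than the 73 bp that the peak calling assigned to each fragment end, and 29.2% of all intervals were. The median of the mean count was 64.7 per library, against 67.3 over all intervals, and 2349 members (84.6%) held at least 20 counts in every library, against 76.4% of all intervals. A total of 585 overlapped another interval of the table, so their fragment ends can count in both.

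Accessibility was lower downstream than at the start. Counts were divided by interval width and by the library's total in intervals (RPKM). The median over members was 111, 112 and 116 RPKM in CTL replicates 1, 2 and 3, and in the H2A.Z dKO replicates it was 130, 111 and 109 RPKM. The highest library was H2A.Z dKO replicate 1, and the other 5 lay between 109 and 116. Start-site intervals had medians of 134, 134 and 132 RPKM in CTL and 132, 131 and 133 in H2A.Z dKO. The difference of the medians of log2(RPKM + 1), downstream minus start, was negative in all 6 libraries (-0.26, -0.26 and -0.18 in CTL, and -0.02, -0.24 and -0.28 in H2A.Z dKO; by an exact permutation of signs over libraries p = 0.03125, two-sided, the smallest that 6 libraries allow). Against the upstream flank it was also negative in all 6 (-0.34, -0.33 and -0.29 in CTL, and -0.17, -0.31 and -0.33 in H2A.Z dKO; exact permutation of signs, p = 0.03125). The order held at equal width. In each of 6 classes of width the downstream median was below that of start sites, for example 110 against 118 RPKM at 50 to 99 bp and 128 against 155 RPKM at 300 to 499 bp.

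Most pairs at the same TSS gave the same order. A partner start-site interval, with its midpoint within 100 bp of the same TSS, existed for 1060 members (38.2%, at 970 TSSs). The filters on width, neighbours and GC were not applied to partners. Where a TSS had several such intervals, the one with the highest mean RPKM was taken, which favours a ratio below 0. The spacing of member and partner had a median of 265 bp between midpoints. Where the 2 did not overlap (882 pairs), the gap had a median of 90 bp and an interquartile range of 62 to 123 bp. The member's RPKM had a median log2 ratio to that interval of -0.37, with 5% to 95% of pairs between -1.06 and 0.41. It was lower in 832 pairs (78.5%), and lower in every library in 557, whereas it was higher in every library in 83. The ratio was nearer to 0 at 100 to 199 bp (-0.24, 221 pairs) than at 200 to 299 bp (-0.39, 615 pairs) or 300 to 400 bp (-0.39, 224 pairs). Across pairs, the log2 RPKM of member and start correlated with a Pearson's r of 0.54 and a Spearman's rho of 0.55 (n = 1060), as a description, since both come from the same libraries and neighbouring DNA of like base composition. Of the 1717 members without such a partner, 1050 had a start-site interval at another TSS of their gene, and 2346 of all members (84.5%) had some interval within 500 bp upstream.

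The 6 most accessible downstream intervals, among those with at least 50 counts in every library, belonged to Hbp1, Rbx1, Stub1, Flcn, Cyhr1 and Zranb3. Hbp1, a transcriptional repressor with an HMG box, had the highest mean, with counts of 580, 476 and 350 in CTL replicates 1 to 3 and 578, 438 and 414 in those of H2A.Z dKO, or 408 ± 16.6 and 380 ± 35.7 RPKM (SD, n = 3 each). Its interval lies in a 5′ UTR exon at chr12:32635054-32635296. Rbx1, the RING subunit of cullin ubiquitin ligases, held 352, 272 and 194 counts in CTL and 452, 252 and 254 in H2A.Z dKO (355 ± 11.5 and 379 ± 87.3 RPKM). In both genes the ranges of the groups overlapped. Stub1, which encodes a ubiquitin ligase working with chaperones, reached 334 ± 7.6 and 329 ± 16.6 RPKM. Flcn (folliculin) reached 316 ± 39.7 and 317 ± 28.0 RPKM. Cyhr1 reached 322 ± 21.4 and 309 ± 23.2 RPKM, and Zranb3, an annealing helicase, 315 ± 16.1 and 311 ± 18 RPKM. Over all members the interquartile range was 92.3 to 146 RPKM, and 5% were above 218 RPKM. In each of these 6 the means of the groups differed by less than the larger SD.

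Some members exceeded the interval at their own start. In Cr1l, which encodes a complement regulator, the member in a coding exon at chr1:196957161-196957391 had 162 ± 6.7 RPKM in CTL and 143 ± 16.6 in H2A.Z dKO, against 67.4 ± 7.3 and 64.0 ± 4.5 at the start, a ratio of 2.32. Tuba1c, an alpha-tubulin gene, had a ratio of 1.89, Ilvbl of 1.81 and Ppa2, which encodes the mitochondrial pyrophosphatase, of 1.66. In Ilvbl the member held 174, 118 and 77 counts in CTL and 217, 96 and 115 in H2A.Z dKO. At the other end, Zfc3h1 had 114 ± 11.5 and 110 ± 18.6 RPKM at the member, against 305 ± 18.6 and 326 ± 13.5 at the start (ratio 0.36). Zfp174, a zinc finger gene, had a ratio of 0.38. These genes were picked as the extremes of the ratio, so their order is a description.

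Before the groups were compared, the deleted DNA was checked. The floxed segment of H2afz (exons 2 to 4) holds 2 intervals, whose counts summed to 79, 69 and 33 in CTL and 57, 52 and 64 under the H2A.Z dKO label, and the ranges overlap. The level was 12.4 ± 2.83 and 11.3 ± 1.28 CPM, the count scaled to the size of its library (two-sided, by exact permutation, p = 0.6), with a log2 fold change of -0.16 and a 95% confidence interval of -0.61 to 0.30. That value was -0.01 without CTL replicate 2 and -0.30 without CTL replicate 3. The floxed segment of H2afv (exons 4 to 5) holds 0 intervals. The deletion was thus not visible in these counts, and the group names are those of the labels. Defining markers of muscle fibres had promoter intervals in 17 of 23 genes, with sums of 663 to 825 CPM in CTL and 687 to 892 in H2A.Z dKO, while those of macrophages and Schwann cells had 0 intervals. Fibroblast markers (5 of 10 genes) held 91.4 to 112 and 107 to 117 CPM, and satellite cell markers (2 of 6 genes) 135 to 199 and 162 to 178. Endothelial markers (5 of 12 genes) held 71.1 to 82.1 in CTL and 57.4 to 64.2 in H2A.Z dKO. Of these lists, the groups did not overlap for endothelial markers. Their part in the results was not tested.

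No downstream interval passed the test between the groups. By the quasi-likelihood test of edgeR, with p-values adjusted by Benjamini-Hochberg over all 39768 intervals, 0 members passed an adjusted p of 0.05, and 0% of all intervals did. DESeq2 and limma voom also called 0. The smallest adjusted p among members was 0.972 with edgeR. At an unadjusted p under 0.05, edgeR counted 108 members (3.89%), against 4.95% of all intervals tested. Of these, 71 were higher in H2A.Z dKO (2.56% of members, 2.64% of all intervals) and 37 lower (1.33% of members, 2.31% of all). For 2642 members (95.1%) both 95% confidence limits were inside a 2-fold change, and for 1339 (48.2%) inside a 1.5-fold change. The median log2 fold change was 0.06 over members and 0.01 over all intervals, and 1707 members (61.5%) were positive. A different mix of nuclei and a different accessibility per nucleus cannot be told apart in these bulk libraries.

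The direction of this small shift depended on 1 library. The downstream intervals held 4.915%, 4.902% and 5.004% of all counts in CTL replicates 1, 2 and 3, and 5.683%, 4.828% and 4.792% in H2A.Z dKO replicates 1, 2 and 3. H2A.Z dKO replicate 1 was the highest of the 6, and the other 2 of its group were the lowest. The means were 4.94% ± 0.0553 and 5.10% ± 0.505 (SD, n = 3 each), with p = 1 by exact permutation of the libraries, which at 3 against 3 gives 0.1 at the least. Start-site intervals held 27.8%, 27.9% and 27.5% in CTL, and 27.6%, 27.4% and 27.7% in H2A.Z dKO, so replicate 1 was within the range of the other libraries there. Intervals over 1000 bp from the TSS of any protein-coding gene held 27.0%, 26.6% and 26.9% in CTL. In H2A.Z dKO they held 24.5%, 28.4% and 28.1%, with replicate 1 the lowest. The upstream flank held 8.87%, 8.94% and 8.87% in CTL and 9.05%, 8.69% and 8.72% in H2A.Z dKO, with replicate 1 again the highest.

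**Figure D2:**
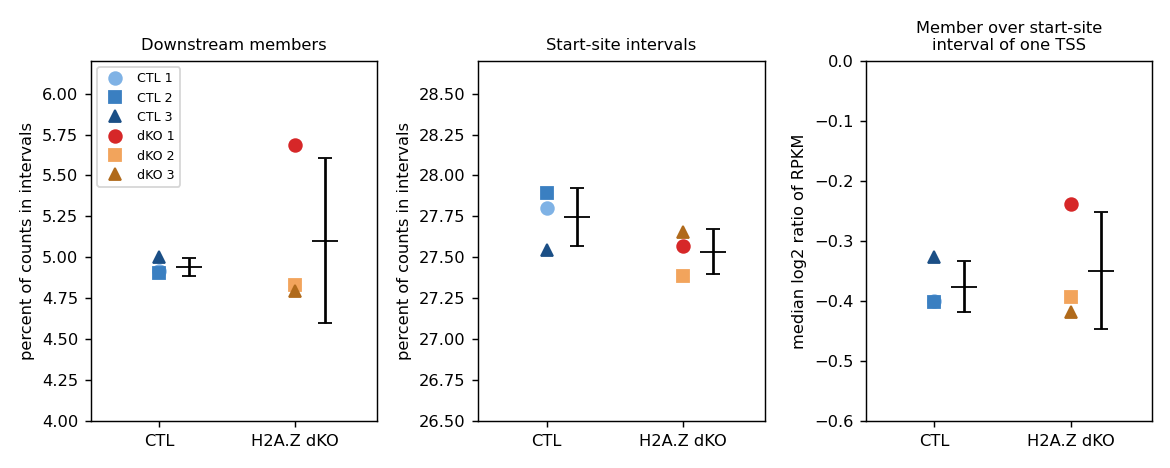
Percent of a library's counts in downstream intervals (left) and start-site intervals (middle), and the median log2 ratio of member over start-site interval of one TSS (right); symbols are libraries, bars are mean ± SD of 3 libraries, and the axes do not start at 0. H2A.Z dKO replicate 1 stands apart downstream (5.68% against 4.79% to 5.004% in the other 5) and not at start sites.

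The shift of this library ran through most members. Its log2 CPM deviated from the mean of the 6 libraries by a median of 0.22 over members, compared with -0.03, -0.02 and 0.01 in CTL replicates 1 to 3 and -0.06 and -0.09 in H2A.Z dKO replicates 2 and 3. It was the highest of the 6 libraries in 1478 members (53.2%), compared with 30.6% of start-site intervals and 24.5% of all intervals, and it was above the mean in 2233 members (80.4%). The same TSSs showed both values. Over the 1060 members with a start-site interval the deviation of replicate 1 was 0.21, and over their start-site intervals it was 0.05. The median log2 ratio of member over start was -0.40, -0.40 and -0.33 in CTL replicates 1 to 3 and -0.24, -0.39 and -0.42 in H2A.Z dKO (p = 0.8, exact permutation, two-sided). The difference between members and the upstream flank did not separate the groups either (p = 0.5, exact permutation, two-sided).

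Without H2A.Z dKO replicate 1 the direction turned. The median log2 fold change of members became -0.06, with 1063 members (38.3%) positive, compared with 0.00 and 50.3% over all intervals. The upstream flank turned alike, to -0.05 with 37.9% positive, and start-site intervals had a median of -0.03. With the same edgeR test, 0 intervals were called. At an unadjusted p under 0.05 there were 171 members (6.16%, against 7.95% of all intervals), of which 33 were higher (1.19%, against 4.24% of all intervals) and 138 lower (4.97%, against 3.71% of all). The remaining pair of H2A.Z dKO libraries had lower median deviations in members than each CTL library. With 2 libraries against 3 an exact permutation test cannot go below 0.2.

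The deviation of H2A.Z dKO replicate 1 followed the distance from the TSS. It was 0.01 in the 100 bp before the TSS and 0.06 in the 100 bp after it, and then 0.18 at 100 to 199 bp, 0.22 at 200 to 299 bp and 0.26 at 300 to 399 bp. It remained at 0.25 at 400 to 499 bp, and was 0.01 at 800 to 899 bp. Upstream it reached 0.17 at -500 to -401 bp. The rise was thus on both sides of the start, and larger downstream. No other library deviated by more than 0.10 in any of the 6 bins from -300 to 300 bp.

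**Figure D3:**
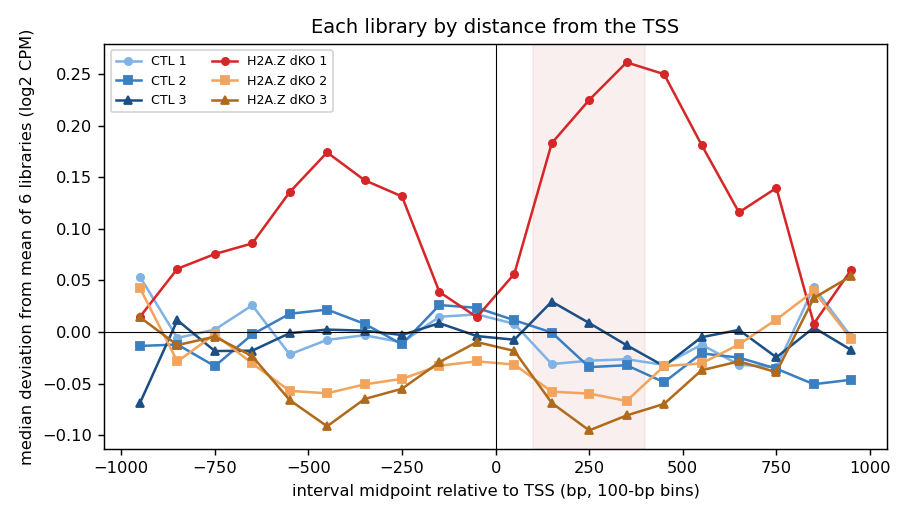
Median deviation of each library from the mean of the 6 (log2 CPM) against the distance of the interval midpoint from the TSS, in bins of 100 bp; each line is 1 library and shading marks 100 to 400 bp. H2A.Z dKO replicate 1 rises from 0.01 just before the TSS to 0.26 at 300 to 399 bp.

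Base composition moved with this deviation but the zone differed at equal GC. Replicate 1 deviated by 0.07 in members of 50 to 55% GC, by 0.21 at 65 to 70% and by 0.29 at 75 to 80%. In start-site intervals of the same GC the deviations were -0.08, 0.03 and 0.14. In all 7 classes of GC the member value was above that of start-site intervals and upstream flank. It was also above that of intervals over 1000 bp from a protein-coding TSS. The value in members was positive in each of 6 classes of width, from 0.14 at 300 to 499 bp to 0.25 at 50 to 99 bp. It did not follow the group in which an interval had been called. By the authors' column, 932 members (33.6%) were called in both groups, 1137 (40.9%) in H2A.Z dKO only and 708 (25.5%) in CTL only, against 38.7%, 43.4% and 17.9% of all intervals. Replicate 1 deviated by 0.21, 0.23 and 0.23 in these 3 sets of members. The median log2 fold change, in contrast, was 0.04, 0.14 and -0.06, and the call in 1 group alone uses the counts that the fold change compares. The labels name no batch, and what sets this library apart was not tested.

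**Figure D4:**
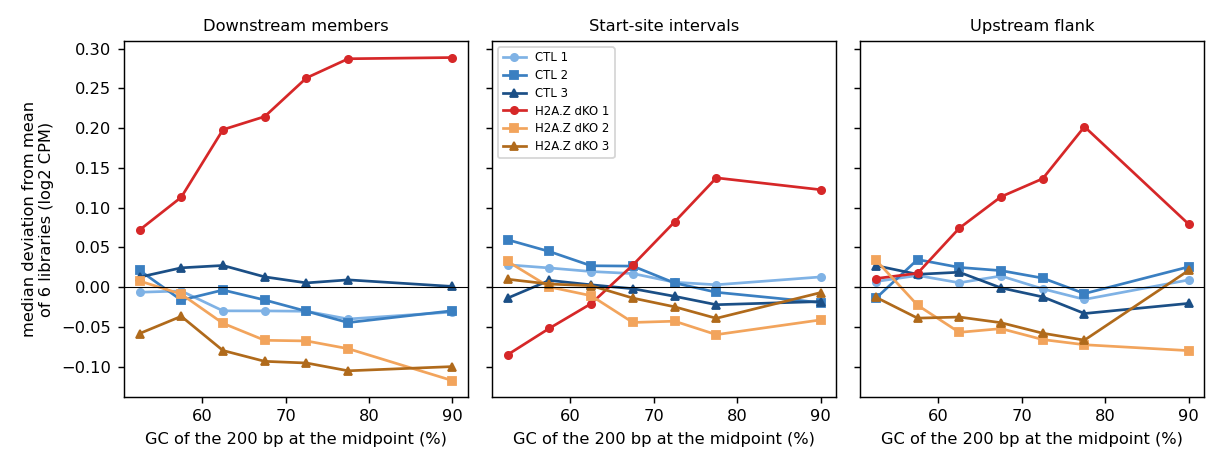
Median deviation of each library from the mean of the 6 (log2 CPM) by GC content of the 200 bp at the interval midpoint, for downstream members (left), start-site intervals (middle) and the upstream flank (right); each line is 1 library. In H2A.Z dKO replicate 1 the member value rises from 0.07 at 50 to 55% GC to 0.29 at 75 to 80%, and start-site intervals go from -0.08 to 0.14.

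Among the members with the smallest p and higher values, Pik3c2b, Gpr25 and Btbd11 were low in counts and Nfix was not. Pik3c2b, which encodes a class II phosphoinositide 3-kinase, held 10, 7 and 3 counts in CTL and 18, 19 and 19 in H2A.Z dKO, a log2 fold change of 1.36 (SE 0.33, edgeR adjusted p = 0.972). Gpr25, an orphan G protein-coupled receptor gene, held 16, 12 and 7 counts in CTL and 26, 24 and 35 in H2A.Z dKO (log2 fold change 1.17, SE 0.29, edgeR adjusted p = 0.972). Both genes had every H2A.Z dKO library above every CTL library. Btbd11 held 9, 19 and 11 against 39, 25 and 21 counts, with CTL replicate 2 close to the lowest H2A.Z dKO library. In Nfix, a nuclear factor I gene with a role in muscle development, the counts were 148, 109 and 89 against 315, 143 and 137. Its log2 fold change was 0.64 (SE 0.22, edgeR adjusted p = 0.972) with all libraries and 0.25 without H2A.Z dKO replicate 1, so this library carried most of it.

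Lower values were found in Cdh23, Anln, Vamp2 and Psmd9, all with an edgeR adjusted p of 0.972. Cdh23, a cadherin gene of inner ear hair cells, held 111, 75 and 72 counts in CTL and 67, 58 and 44 in H2A.Z dKO (log2 fold change -0.73, SE 0.21). Anln, which encodes the cytokinesis protein anillin, held 22, 15 and 26 against 10, 11 and 9 (-1.19, SE 0.35). Vamp2, a SNARE gene of vesicle fusion, held 40, 37 and 41 against 27, 21 and 23 (-0.87, SE 0.26). Psmd9, which assists proteasome assembly, held 56, 35 and 34 against 31, 19 and 32 (-0.72, SE 0.24). In each of these the groups did not overlap once the counts were scaled by library size. Non-overlap in RPKM was found in 176 members with H2A.Z dKO higher (6.34%, against 5.26% of all intervals) and in 96 with it lower (3.46%, against 5.3%).

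**Figure D5:**
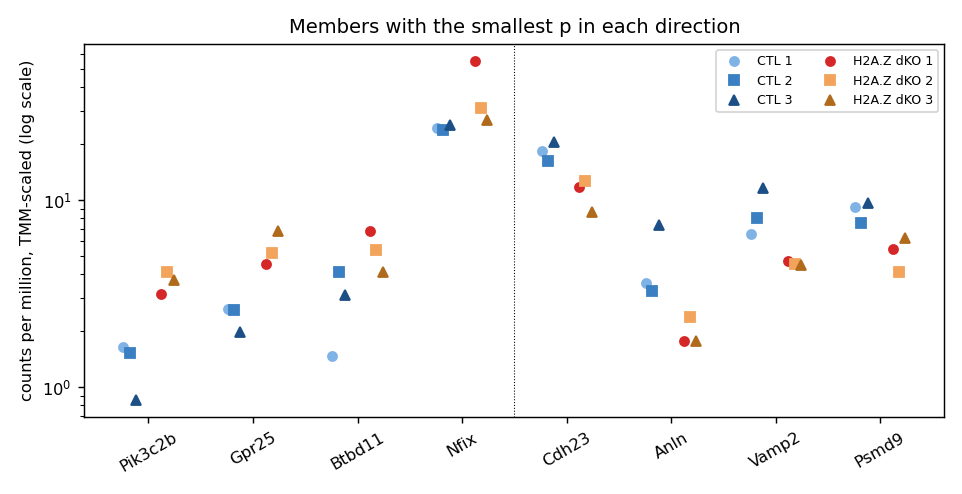
CPM (scaled by TMM factors, log scale) in each library for the 4 members with the smallest p in each direction, higher in H2A.Z dKO left of the dotted line and lower right of it; blue symbols are CTL and red to brown symbols are H2A.Z dKO. Nfix is separated mostly by H2A.Z dKO replicate 1, with 315 counts.

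Genes that handle H2A.Z and chromatin were represented. Of 29 genes of H2A.Z exchange (SRCAP, TIP60 and INO80 subunits and chaperones), 14 had downstream intervals, 15 in all, none of which passed the adjusted test (median log2 fold change 0.09, 9 positive; -0.07 without H2A.Z dKO replicate 1). H2afv held 293, 236 and 158 counts in CTL and 373, 229 and 216 in H2A.Z dKO, or 211 ± 13.4 and 230 ± 45.7 RPKM, with a log2 fold change of 0.13 and a 95% confidence interval of -0.18 to 0.44. Its groups overlapped, and the value was -0.07 without H2A.Z dKO replicate 1. Epc2, a TIP60 complex subunit gene, held 150, 114 and 84 counts against 259, 116 and 128. Its log2 fold change was 0.40 (SE 0.20), and 0.04 without that library. Meaf6, another subunit gene of histone acetyltransferase complexes, held 153, 87 and 86 against 206, 123 and 154 (0.45, SE 0.18; 0.32 without it). Epc1 was at 177 ± 22.5 and 172 ± 29.7 RPKM.

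Chromatin remodelling and histone modification genes gave 22 members from 21 of 72 genes, with 18 positive and 4 negative log2 fold changes. Their median was 0.14 (0.06 over all members), and -0.04 without H2A.Z dKO replicate 1, which deviated by a median of 0.42 in this list. None passed the adjusted test. Sin3a, a corepressor scaffold, held 254, 180 and 142 counts in CTL and 334, 168 and 200 in H2A.Z dKO. Ep300, a histone acetyltransferase, held 437, 347 and 265 against 676, 255 and 342, so that its lowest and highest scaled levels were both in H2A.Z dKO. Smarcd3, a BAF subunit of muscle and heart, was at 275 ± 44.5 and 245 ± 30.9 RPKM, over 17 bp only. Arid2, a PBAF subunit, was at 197 ± 23.2 and 215 ± 27.9 RPKM.

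Genes of pausing and elongation gave 15 members from 12 of 49 genes (median log2 fold change 0.04, 9 positive; -0.08 without H2A.Z dKO replicate 1). Iws1, an elongation factor gene, was at 205 ± 28.5 RPKM in CTL and 209 ± 16.8 in H2A.Z dKO. Polr2d, an RNA polymerase II subunit gene, was at 152 ± 13.2 and 180 ± 41.1 RPKM. Mepce, which caps the 7SK RNA, was at 139 ± 6.6 and 158 ± 51.1 RPKM, and Ctr9, of the PAF1 complex, at 167 ± 47.2 and 126 ± 42.6 RPKM. In each of these 4 the means differed by less than the larger SD.

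Genes of the muscle fibre itself gave 4 downstream intervals, each in a different gene. Of 59 such genes, 4 had one and 30 had a start-site interval. In the other 7 lists the genes with a downstream interval were 14 of 29 for H2A.Z exchange, 12 of 49 for pausing and elongation, 21 of 72 for remodelling, 13 of 65 for muscle signalling, 45 of 161 for translation, 44 of 200 for mitochondria and 39 of 167 for proteostasis, and the difference was not tested. Tnnc2, the fast troponin C gene, held 219, 163 and 139 counts in CTL and 225, 204 and 214 in H2A.Z dKO (132 ± 8.3 and 150 ± 11.9 RPKM), where the RPKM of CTL replicate 3 was above that of H2A.Z dKO replicate 1. Sgcb, a sarcoglycan gene, held 230, 162 and 136 against 255, 183 and 226 (127 ± 6.4 and 147 ± 8.4 RPKM), and its groups did not overlap in RPKM. Sgca was at 209 ± 63.3 and 170 ± 4.0 RPKM over 24 bp, and Dysf, a membrane repair gene, at 93.8 ± 7.4 and 110 ± 26.6 RPKM. The log2 fold changes were 0.19 (SE 0.14) for Tnnc2, 0.21 (SE 0.14) for Sgcb, -0.24 (SE 0.28) for Sgca and 0.20 (SE 0.28) for Dysf, and none passed the adjusted test. The median of these 4 members was 0.19, and 0.21 without H2A.Z dKO replicate 1.

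Muscle signalling and transcription factor genes gave 15 members from 13 of 65 genes (median log2 fold change 0.10, 9 positive; -0.05 without H2A.Z dKO replicate 1). Srf, the serum response factor gene, was at 176 ± 22.3 and 193 ± 8.4 RPKM. Arntl, a core gene of the circadian clock, was at 164 ± 19.2 and 171 ± 29.6 RPKM, Rora, a nuclear receptor gene, at 176 ± 12.7 and 188 ± 26.9, and Irs1, of insulin signalling, at 153 ± 10.6 and 179 ± 60.4. In each of these 4 the means of the groups differed by less than the larger SD.

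The lists of general metabolism had many members and shared the shift of replicate 1. Translation genes gave 46 members with a median log2 fold change of 0.09 (30 positive and 16 negative; -0.10 without it). Mitochondrial genes gave 48 members from 44 of 200 genes, with 0.08 (29 positive and 19 negative; -0.05 without it), and proteostasis genes 41 members from 39 of 167 genes, with 0.08 (21 positive and 20 negative; -0.06 without it). No member of the 3 lists passed the adjusted test. Mrpl54, of the mitochondrial ribosome, held 249, 203 and 173 counts in CTL and 259, 223 and 247 in H2A.Z dKO (241 ± 23.1 and 256 ± 15.6 RPKM). Ndufaf3, an assembly factor of respiratory complex I, was at 251 ± 39.6 and 237 ± 39.1 RPKM. Eef1g, an elongation factor subunit, was at 229 ± 15.9 and 243 ± 79.9 RPKM, and Psma5, a proteasome subunit, at 224 ± 10.7 and 210 ± 30.7. Ube2d3, a ubiquitin-conjugating enzyme gene, held 126, 93 and 77 counts in CTL and 198, 82 and 97 in H2A.Z dKO, where replicate 1 alone was above CTL after scaling.

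Levels on either side of the limits of the rule were as follows. At 75 to 99 bp the median was 126 RPKM (210 intervals), at 100 to 124 bp 124 RPKM (173), at 376 to 400 bp 123 RPKM (129) and at 401 to 425 bp 116 RPKM (125). Members of 50 to 52.5% GC had a median of 124 RPKM (81) and intervals of 47 to 49.5% GC 112 RPKM (54).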

How the data were processed

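ATAC-seq was analysed in 6 libraries, 3 CTL and 3 labelled H2A.Z dKO, grouped by their labels. Per the labels and methods, the authors trimmed adapters (Trimmomatic), aligned pairs to mm9 (Bowtie), removed PCR duplicates (Picard), shifted fragment ends by 4 and 5 bp, called peaks with MACS2 and merged those shared by replicates. The authors deposited unnormalized counts of fragment ends per interval. Their columns of scaled means and of DESeq2 fold change, error, statistic and p-values were not used. Totals were 3520008 to 6117245 counts, which limits the precision of narrow intervals. Starts were read as 0-based. The methods state another number of union intervals than this table holds, and shares and adjustments here refer to this table.

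Intervals were annotated with GENCODE vM1. Counts of all 39768 intervals were fitted without filter by edgeR 4.0.16 (TMM, robust quasi-likelihood) in R 4.3.3, with a threshold of 0.05 on Benjamini-Hochberg adjusted p. Standard errors were derived from the fold change and its F statistic. RPKM used the total counts in intervals. Deviations are of log2(CPM + 0.5), with CPM scaled by TMM factors. Values per library were compared by exact permutation tests (scipy 1.17.1). Alternatives were DESeq2 1.42.0, limma 3.58.1 voom, other scalings, filters, TSS sets, a replicate block and each library left out. The edgeR step was tested on simulated data. Python 3.11.15, pandas 2.3.3 and pysam 0.24.0 were used.

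Named are the 6 members of highest RPKM (at least 50 counts in every library), the 4 of smallest p in each direction, the 4 highest and 2 lowest relative to their start-site interval, up to 4 of highest RPKM per gene list, and H2afv. A member that this rule names is not reported here. Members, lists and tests were chosen with earlier results of these data known.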

Additional observations from a re-analysis of the deposited data

How the results depend on the processing

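With edgeR, DESeq2 and limma voom, with each scaling, filter, replicate block and omission of a library tried, 0 intervals were called at an adjusted p under 0.05, while 1970 had an unadjusted p under 0.05 with edgeR. The count of 108 members at an unadjusted p under 0.05 was 41 with DESeq2, 58 among members with at least 20 counts in every library and 58 among those at least 73 bp wide, where fewer members were tested. Leaving out a library gave 62 (without CTL replicate 3) to 171 (without H2A.Z dKO replicate 1). The members' median log2 fold change of 0.057 ranged from -0.064 (without H2A.Z dKO replicate 1) to 0.108 (without replicate 2 of that group). The difference in the share of counts, 0.161 percentage points, ranged from -0.131 to 0.315 (without H2A.Z dKO replicates 1 and 3). That in the log2 ratio of member over start, 0.026, ranged from -0.030 to 0.060 (without the same libraries). The cause was not tested. The difference between the groups in members minus upstream flank, 0.0505, fell to 0.000125 without H2A.Z dKO replicate 1 and was at most 0.0795 (without replicate 3 of that group). The log2 fold change of the floxed segment, -0.158, lay between -0.300 (without CTL replicate 3) and -0.015 (without CTL replicate 2), alternatives chosen after seeing the data. The same replicate number did not pair libraries (correlations of deviations -0.10, -0.05 and -0.03). With the replicate block 96 members had an unadjusted p under 0.05, and 1756 of all intervals did. The median log2 fold change of members was then 0.05. The 8 named members of smallest p kept their direction and passed no adjusted test under the 11 or 12 alternatives run for each, with edgeR, DESeq2 or voom adjusted p from 0.392 to 0.9998.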
